A study of Rattus norvegicus with 102 samples.

Results

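The 10 genes described here, Cldn5, Esam, Pecam1, Flt1, Kdr, Tek, Tie1, Vwf, Slc2a1 and Abcb1a, mark the endothelium, the cell layer that lines blood vessels, in brain. They were chosen by symbol, were present in each of the 3 deposited tables, and are 10 of the 26284 genes listed in the Illumina table. In the order given they are ENSRNOG00000045811 on chromosome 11, ENSRNOG00000033217 on chromosome 8, ENSRNOG00000043391 on chromosome 10, ENSRNOG00000000940 on chromosome 12, ENSRNOG00000046829 on chromosome 14, ENSRNOG00000008587 and ENSRNOG00000020173 on chromosome 5, ENSRNOG00000019689 on chromosome 4, ENSRNOG00000007284 on chromosome 5 and ENSRNOG00000008012 on chromosome 4 of the rn5 build. All 10 passed the filter on low values in every table (a mean normalised read count of at least 10). The samples were bulk tissue from the hippocampus of 34 male Fisher 344 rats, divided by hand into the subfields CA1, CA3 and dentate gyrus (DG), with 1 library per subfield and rat. Young animals (Y, n = 10) had an age of 5 to 6 months. Aged animals, at 17 to 22 months, had been sorted by a water maze, a spatial memory test, into unimpaired (OG, n = 12) and impaired animals (OB, n = 12). The labels name no transgene or drug in any group, and no cell type was isolated, so the endothelium contributed only part of each RNA sample. In such bulk tissue, fewer endothelial cells and less RNA per endothelial cell cannot be told apart.

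Brain capillaries differ from vessels elsewhere in that their endothelial cells are sealed to one another by tight junctions and carry nutrients and drugs across by transporters, which together form the blood-brain barrier. The growth and upkeep of these vessels depend on receptor tyrosine kinases that read vascular endothelial growth factor (VEGF) and the angiopoietins. Pericytes and smooth muscle cells wrap the endothelial tube, astrocytes reach it with their end-feet, and larger vessels enter the hippocampus with the leptomeninges, the thin membranes on the brain surface.

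The 10 genes varied together from library to library (values further on), and promoters are therefore shown for the genes on which the comparisons below turn: the junction gene Cldn5, the receptor genes Flt1 and Tie1 and the transporter gene Slc2a1. RefSeq (build GRCr8) gave a window of 250 bases before to 50 bases after the gene start for 6 of the 10 genes, and Tek, Pecam1, Vwf and Esam had no entry in the table used. The windows lie at chr11:95718549-95718848 on the minus strand for Cldn5, at chr12:12333180-12333479 on the plus strand for Flt1, at chr5:137304932-137305231 on the minus strand for Tie1 and at chr5:138002272-138002571 on the plus strand for Slc2a1. Each is printed 5′ to 3′ along its gene, and capitals mark the GC box, GGGCGG on either strand, which reads CCGCCC where it lies on the other strand.
Cldn5: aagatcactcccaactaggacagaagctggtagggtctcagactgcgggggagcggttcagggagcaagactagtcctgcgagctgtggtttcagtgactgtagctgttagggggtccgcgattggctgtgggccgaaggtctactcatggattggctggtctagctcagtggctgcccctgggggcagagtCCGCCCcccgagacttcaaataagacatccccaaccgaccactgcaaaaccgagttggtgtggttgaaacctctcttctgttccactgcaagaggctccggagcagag
Flt1: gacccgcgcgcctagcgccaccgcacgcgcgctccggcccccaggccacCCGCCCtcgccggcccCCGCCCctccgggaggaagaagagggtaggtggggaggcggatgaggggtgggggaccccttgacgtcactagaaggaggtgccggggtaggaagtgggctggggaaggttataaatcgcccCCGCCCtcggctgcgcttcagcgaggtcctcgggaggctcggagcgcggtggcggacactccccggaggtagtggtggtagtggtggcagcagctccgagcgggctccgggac
Tie1: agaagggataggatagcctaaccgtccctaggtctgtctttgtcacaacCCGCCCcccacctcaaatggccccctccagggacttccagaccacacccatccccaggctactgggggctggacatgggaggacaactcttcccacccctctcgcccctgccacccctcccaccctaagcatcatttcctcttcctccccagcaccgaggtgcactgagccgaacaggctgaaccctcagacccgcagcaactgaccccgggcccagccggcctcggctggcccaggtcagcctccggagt
Slc2a1: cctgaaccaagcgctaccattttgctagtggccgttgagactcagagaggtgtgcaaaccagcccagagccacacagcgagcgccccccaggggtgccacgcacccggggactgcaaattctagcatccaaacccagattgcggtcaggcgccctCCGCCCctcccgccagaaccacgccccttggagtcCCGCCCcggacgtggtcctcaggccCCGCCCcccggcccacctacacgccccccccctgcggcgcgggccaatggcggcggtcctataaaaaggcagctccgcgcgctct
All 6 windows, Abcb1a (chr4:26397599-26397898, minus strand) and Kdr (chr14:32571813-32572112, plus strand) included, held at least 1 GC box, against 33.1% of the 33469 promoters of the same length in the table. Cldn5, Kdr, Tie1 and Abcb1a had 1 GC box each, and Flt1 and Slc2a1 had 3 each. The core GGAAG, which proteins of the ETS family bind, was found on either strand in 4 of 6 windows (70.1% of all promoters), the core ACGTG of hypoxia response elements in 1 of 6 (19.3%) and the TATA box letters TATAAA in 2 of 6 (14.2%). No GC box shared a base with a match to one of the other 3 motifs. The windows were rich in G and C, at 53.7% for Abcb1a to 72.7% for Flt1, against a median of 51.7% over all promoters. These are letter matches and say nothing on whether a factor was bound.

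Depth here is the sum of reads counted in genes, not the number of reads sequenced. It ranged from 3.25 to 42.8 M (megareads) per library in the Illumina poly-A table (median 10.7). For the Ion Proton poly-A table it was 4.47 to 21.4 M (median 9.74). A table marked WT, whose library type is not given in the sources used here, had 3.54 to 20.6 M (median 8.07). The smallest read number behind any member in a library was 38 for Illumina, 1 for Ion Proton and 13 for WT, each for Kdr. For Cldn5 it was 13 in the Ion Proton table. On fixed CA1, CA3 and DG marker genes, 11 libraries were nearest to another subfield than their label in both poly-A tables (7 labelled CA3, 3 labelled DG and 1 labelled CA1, from 9 rats), and 10 of them came from rats numbered 9000 and above. The animals carry 2 series of numbers, 18 rats below 9000 (5 Y, 6 OG and 7 OB) and 16 from 9000 upwards (5 Y, 6 OG and 5 OB). The study worked at 2 sites with animals from different suppliers, and the numbers of young and aged rats it gives per site equal those of the 2 series. The labels do not tie a rat to a site, so whether the series mark the sites is not given. The labelled tissue is hippocampus, and genes of astrocytes (Aqp4, Gja1, Gfap and 5 others) were read in every library. Of the 25 other endothelial marker genes found, such as Cdh5 and Emcn, 22 passed the filter.

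The endothelial genes were higher in CA1 than in DG. In the Illumina data, all 10 had a higher mean in CA1, by 1.25-fold (Slc2a1) to 1.48-fold (Pecam1), and all 10 passed the test (limma on log2(normalised read count + 1), Benjamini-Hochberg adjusted p under 0.05). Of the 14179 genes tested, 29.0% were called higher in CA1 and 55.6% differed in either direction, and the median log2 difference was 0.46 for the members and 0.00289 for all genes. The Ion Proton table called 7 of 10 higher (15.4% of all genes there), with Kdr, Pecam1 and Esam not called. The WT table called 10 of 10 higher (23.5%). Both poly-A tables called the same 7 members higher in CA1, where 13.4% of 13907 genes met that rule.

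By the fitted means CA3 lay between the other subfields for all 10 genes. Against CA3, CA1 was higher for 2 of 10 members in the Illumina table, Cldn5 and Pecam1 (18.3% of all genes were called higher), for 0 of 10 by limma in the Ion Proton table (7.73%) and for 4 of 10 in the WT table (16.5%), namely Cldn5, Tek, Pecam1 and Abcb1a. At an unadjusted p under 0.05, 3 of 10 members reached the mark in the Ion Proton table, where 27.5% of all genes did. edgeR and DESeq2 were run on the Illumina table only, where each called 1 member higher in CA1 than in CA3, while they called 36.4% and 38.1% of all genes in either direction. CA3 was higher than DG for 6 of 10 members in the Illumina table (28.9% of all genes), namely Cldn5, Kdr, Tek, Tie1, Pecam1 and Slc2a1. In the Ion Proton table, only Slc2a1 was called higher in CA3 than in DG (15.8%), and in the WT table Tek, Pecam1 and Slc2a1 were (25.3%). Every estimate for the 10 genes was positive in all 3 comparisons and all 3 tables, while about as many genes were above as below 0 over the whole table (51.9% above for CA1 against CA3 and 50.7% for CA1 against DG in the Illumina table). The comparisons share libraries, so these signs are not independent of each other.

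**Figure D1:**
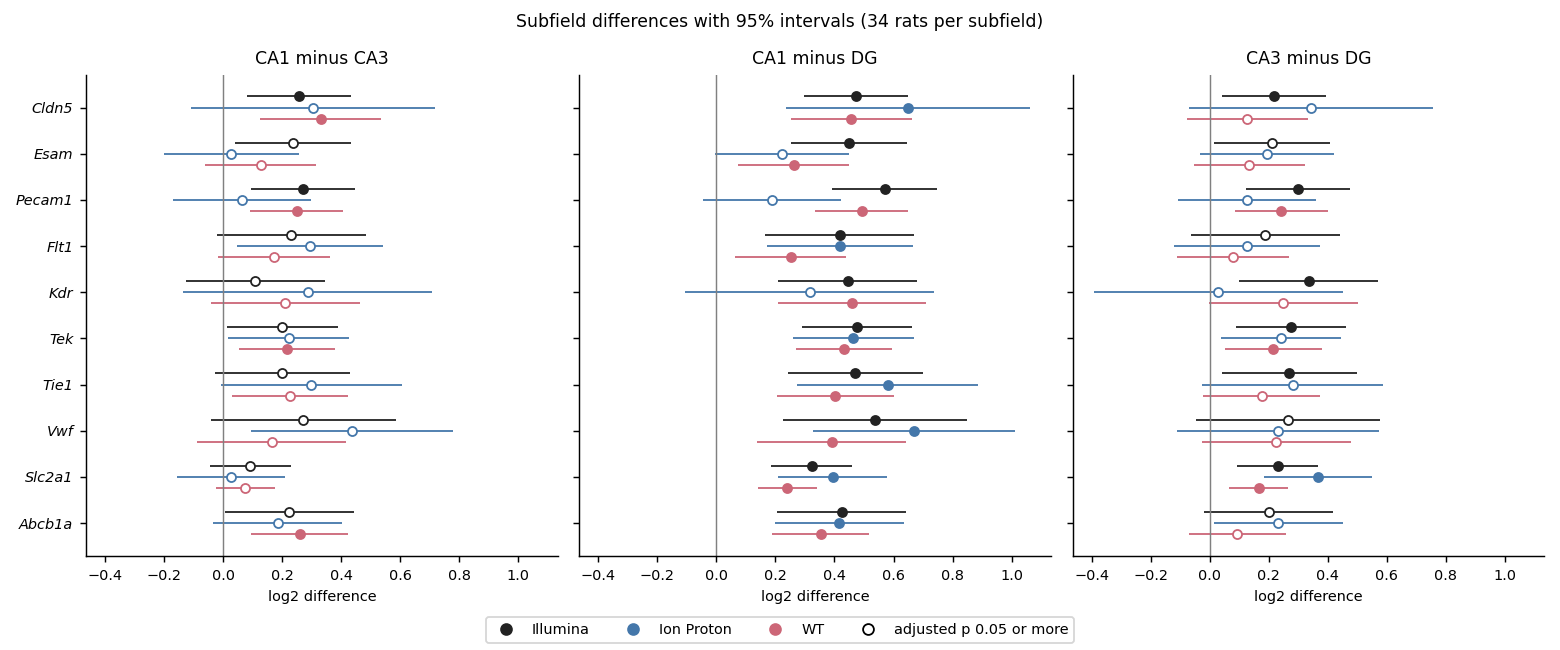
Log2 differences between subfields for the 10 endothelial genes in the Illumina, Ion Proton and WT tables, with 95% intervals; filled points have an adjusted p under 0.05 and open points do not. All points lie to the right of 0, and for Illumina 10 genes are filled for CA1 minus DG, 6 for CA3 minus DG and 2 for CA1 minus CA3.

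Each rat gave all 3 subfields, and the fit that held the rat as a block called 9 of 10 members higher in CA1 than in CA3, 10 of 10 higher in CA1 than in DG and 10 of 10 higher in CA3 than in DG, where 40.7%, 59.3% and 59.9% of all genes were called in either direction. Counted rat by rat in the Illumina table, CA1 exceeded DG in 30 (Flt1) to 33 (Pecam1, Slc2a1) of 34 rats. CA1 exceeded CA3 in 22 (Kdr) to 26 rats, and CA3 exceeded DG in 21 (Flt1, Abcb1a) to 29 (Slc2a1) rats. Calls given below are those of limma without the rat as a block, unless another fit is named.

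Among the junction genes, Cldn5 encodes claudin 5, the main claudin of brain endothelial tight junctions. In the Illumina table, its normalised read count in CA1 went from 331.5 through a median of 532.2 up to 849.8. In CA3 it went from 205.9 through 411.6 up to 1264, and in DG from 167.3 through 401.0 up to 520.3. The groups overlapped, and the highest value of all was in 1 CA3 library, while 31 of 34 CA1 libraries lay above the DG median. On the log2 scale CA1 exceeded DG by 0.47 (SE 0.09, limma adjusted p = 3.7e-06) and CA3 by 0.26 (SE 0.09, adjusted p = 0.017), and CA3 in turn exceeded DG by 0.22 (SE 0.09, adjusted p = 0.031).

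Pecam1, the adhesion molecule CD31 at contacts between endothelial cells, showed the widest gap between CA1 and DG among the 10 genes in the Illumina and WT tables and the smallest in the Ion Proton table. Its CA1 counts went from 114.4 through a median of 175.8 up to 333.8. The CA3 libraries ran from 81.8 through 140.2 up to 375.4, and DG counts from 51.19 through 123.1 up to 192.2. CA1 was 1.48-fold above DG (log2 0.57, SE 0.09, limma adjusted p = 5.9e-08) with 32 of 34 CA1 libraries above the DG median, although the ranges overlapped. It was also higher in CA1 than in CA3 (log2 0.27, adjusted p = 0.012) and in CA3 than in DG (log2 0.30, adjusted p = 0.0029). For Ion Proton its CA1 to DG difference was 0.19 (95% interval -0.04 to 0.42) and was not called. Esam, another adhesion molecule of endothelial junctions, came next in this group. Its CA1 counts went from 138.8 through a median of 255.1 up to 345.5. For CA3 the counts went from 88.12 through 188.9 up to 533.0, and DG counts from 65.91 through 186.9 up to 284.7. Its CA3 and DG medians were nearly equal, and only its CA1 to DG difference was called (log2 0.45, SE 0.10, limma adjusted p = 7.4e-05).

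The 4 receptor genes had their highest fitted means in CA1 over all rats. None was called above CA3 in the Illumina table by limma without the rat as a block. In the 16 rats from 9000 upwards the CA3 mean count of each lay above that of CA1. Their CA3 medians lay above CA1 for Flt1 (785.9 against 743.5) and Tek (318.9 against 312.5). For Kdr (147.1 against 161.4) and Tie1 (315.7 against 320.1) they lay below. Flt1 encodes VEGF receptor 1, which binds VEGF tightly and signals weakly, and Kdr encodes VEGF receptor 2, which carries most of the growth signal. Flt1 CA1 counts went from 266.0 through a median of 679.5 up to 1050. CA3 counts of the gene went from 185.7 through 515.5 up to 1231, and DG counts from 119.3 through 549.8 up to 844.0. Its DG median lay above its CA3 median, its groups overlapped, and only CA1 against DG was called (log2 0.42, SE 0.13, limma adjusted p = 0.0037). Kdr CA1 counts went from 80.62 through a median of 161.3 up to 338.3. CA3 values went from 64.02 through 136.2 up to 798.2, and DG counts from 48.31 through 118.0 up to 178.1. Kdr was higher in CA1 and in CA3 than in DG (log2 0.44 and 0.34, both with SE 0.12, limma adjusted p = 0.00098 and 0.013). The 1 CA3 library at 798.2 stood far above the rest, and the Kdr call against DG was not made in the Ion Proton table for either subfield.

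Tek encodes the angiopoietin receptor TIE2, and Tie1 its partner receptor. Tek CA1 counts went from 202.7 through a median of 300.6 up to 570.7. Across CA3 they ran from 145.0 through 246.5 up to 894.5, and DG counts from 105.6 through 237.4 up to 305.0. CA1 exceeded DG by 0.48 (SE 0.09, limma adjusted p = 1.2e-05) and CA3 exceeded DG by 0.28 (SE 0.09, adjusted p = 0.0098) on the log2 scale. Tie1 CA1 counts went from 165.8 through a median of 299.3 up to 557.0. In CA3 the count ran from 126.1 through 239.7 up to 983.8, and DG counts from 89.59 through 227.0 up to 316.5. Its differences from DG were 0.47 for CA1 (SE 0.12, limma adjusted p = 0.00034) and 0.27 for CA3 (SE 0.12, adjusted p = 0.040). For both genes the CA1 and CA3 values overlapped widely. The difference between these subfields was 0.20 and not called in the Illumina table by limma without the rat as a block.

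Vwf, von Willebrand factor, is a clotting protein stored in endothelial cells and most abundant in larger vessels. Relative to its mean it had the widest spread of the 10 genes in each subfield. Its CA1 counts went from 317.8 through a median of 567.7 up to 1915. CA3 counts ran from 209.4 through 425.5 up to 4126, and DG counts from 146.2 through 436.3 up to 773.7. The mean was 640 ± 287 (SD, n = 34) in CA1, 628 ± 690 in CA3 and 441 ± 157 in DG. Only CA1 against DG was called (log2 0.54, SE 0.16, limma adjusted p = 0.0026), and the median of DG lay above that of CA3.

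Slc2a1, one of the transporter genes, showed the smallest step from CA1 to DG in the Illumina and WT tables, while for Ion Proton Pecam1, Esam and Kdr had smaller ones. It encodes GLUT1, the glucose carrier of the blood-brain barrier, which astrocytes also express. Its CA1 counts went from 1375 through a median of 1707 up to 2329. The values of CA3 ran from 1140 through 1542 up to 3355, and DG counts from 946.4 through 1408 up to 2008. CA1 and CA3 both exceeded DG, by 0.32 (SE 0.07, limma adjusted p = 5.2e-05) and 0.23 (SE 0.07, adjusted p = 0.0034), and these 2 calls were also made in the Ion Proton and WT tables. CA1 and CA3 differed by 0.09 (95% interval -0.05 to 0.23). Abcb1a encodes a P-glycoprotein, the efflux pump that returns drugs to the blood. Its CA1 counts went from 422.3 through a median of 625.3 up to 942.2. Within CA3 they went from 301.1 through 463.0 up to 1896, and DG counts from 199.0 through 499.7 up to 871.5. It was higher in CA1 than in DG (log2 0.42, SE 0.11, limma adjusted p = 0.00067), and its DG median lay above its CA3 median. Its CA3 to DG difference was not called by limma without the rat as a block, but was called with it. Abcb1a has a close paralog, Abcb1b, and how reads shared by the pair were counted is not given in the sources used here. Abcb1b went the other way, with a log2 difference of -1.19 between CA1 and DG.

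**Figure D2:**
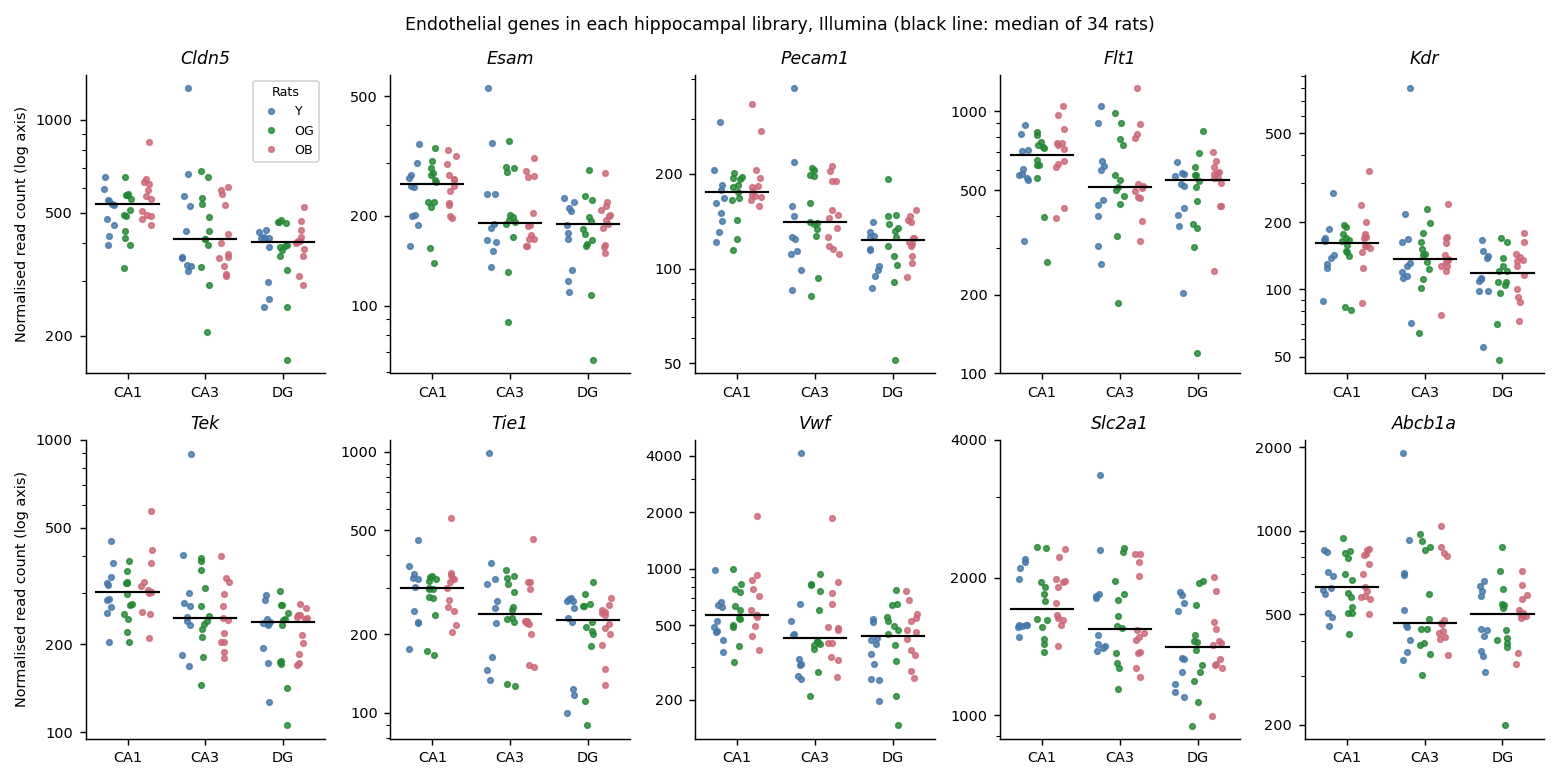
Normalised read count (log axis) of the 10 endothelial genes in each Illumina library, by subfield, with Y, OG and OB rats in colour and the median of 34 rats as a black line. The CA1 median lies above the CA3 and DG medians in each panel, the 3 colours overlap within each subfield, and 1 young CA3 library lies far above the rest, for example at 4126 for Vwf.

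The CA1 to DG step extended to genes of the vessel wall that the symbol rule did not use. The counts of calls here are those of the Illumina table unless another is named, where 29.0% of all genes were called higher in CA1. Of 22 other endothelial markers tested, 20 were called higher in CA1 and 0 lower (median log2 0.43), among them Mcam (0.83), an adhesion molecule, Cdh5 (0.56), the cadherin of endothelial junctions, and Mmrn2 (0.56), an endothelial matrix protein. In the Ion Proton table, 13 of 24 of them were called higher and for WT 16 of 22, against 15.4% and 23.5% of all genes. Of 14 pericyte genes, 11 were called higher and 0 lower (median 0.45), with Abcc9 at 0.61, Rgs5 at 0.46 and Atp13a5 at 0.44, while 4 of 15 were called higher for Ion Proton and 7 of 12 for WT. Of 12 vascular basement membrane genes, 8 were higher and 3 lower, and the perlecan gene Hspg2 (0.70) and the nidogen genes Nid2 (0.68) and Nid1 (0.58) led the increases. For Ion Proton, 9 of these 12 were higher and 2 lower. For 6 genes of leukocyte adhesion and endothelial activation, all 6 were called higher, with a median of 0.53, while 1 of 6 was called higher for Ion Proton and 3 of 5 for WT.

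Lists that reach beyond endothelial cells were mixed, again in the Illumina table. Of 21 VEGF, angiopoietin and Notch ligands and receptors, 13 were higher in CA1 and 3 lower, with Nrp2 (-1.20) and Nrp1 (-0.67), co-receptors for VEGF that neurons use as semaphorin receptors, among the lower genes and Efnb2 (0.65), an arterial ephrin, among the higher. Of 18 transcription factors, 14 were higher and 4 lower, led by Foxo1 (-0.68), Lmo2 (-0.66) and Klf4 (0.59). Of 14 barrier junction and transcytosis genes, 9 were higher and 2 lower, with Marveld2 at -0.73, Cgn at 0.67 and Jam3 at 0.59. Of 19 transporters of brain endothelium, 10 were higher and 2 lower, with Slc22a8 at 0.48 and Slco1c1 at 0.37. Abcb1b, lower in CA1 than in DG as given above, is among these 19. For Ion Proton fewer were called: 5 of 21 higher and 3 lower for the ligands and receptors, 6 of 18 and 2 for the transcription factors, 7 of 14 and 2 for the junction genes, and 6 of 19 and 1 for the transporters.

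Markers of most other cells moved in the same direction in the Illumina table, while platelet genes and 1 of 9 choroid plexus genes were called lower. Between CA1 and DG, 12 of 12 microglia and leukocyte genes, 6 of 7 arterial smooth muscle genes, 5 of 6 blood genes, 7 of 9 leptomeninges genes (median log2 0.77), 4 of 8 astrocyte genes and 5 of 9 choroid plexus genes were called higher in CA1, against 29.0% of all genes, and 3 of 3 platelet genes lower. For Ion Proton the counts were smaller for microglia and leukocytes (4 of 12, median log2 0.10), leptomeninges (3 of 10), astrocytes (2 of 8) and choroid plexus (2 of 9), while 5 of 7 smooth muscle and 6 of 7 blood genes were called higher and 1 of 4 platelet genes lower, against 15.4% of all genes called higher. The summed leptomeninges count was 421 to 11116 in CA1 (median 723) and 145 to 981 in DG (median 494), with 1 of its 11 genes at 0 in every library. The summed blood count was 669 to 7979 in CA1 (median 2262) and 692 to 3756 in DG (median 1464). The part of the leptomeninges, blood, microglia, smooth muscle, astrocyte and choroid plexus genes in the endothelial result was not tested. All 10 members were called higher in CA1 than in DG without the 5 libraries whose leptomeninges sum exceeded 3000. Their median log2 difference was 0.41, where 53.2% of all genes were called in either direction. This fit left out only the highest sums, and the part of the leptomeninges in the remaining libraries was not tested.

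In CA3 against DG, 28.9% of all genes in the Illumina table were called higher in CA3. Of the 22 other endothelial markers, 11 were called higher in CA3 and 0 lower (median 0.25), with Mcam at 0.94, Cdh5 at 0.38 and Ptprb, a phosphatase that acts on TIE2, at 0.36. Pericyte genes were called higher in 3 of 14 cases, a share below that of all genes, with Cspg4 (0.43), which oligodendrocyte precursors also express, as the named gene. In the same comparison, 12 of 12 microglia and leukocyte genes, 3 of 9 leptomeninges genes and 1 of 6 blood genes were called higher in CA3, and their part in the result was not tested. For Ion Proton, 3 of 24 other endothelial markers, 1 of 15 pericyte genes and 6 of 12 microglia and leukocyte genes were called higher in CA3, against 15.8% of all genes. In CA1 against CA3, where 18.3% of all genes were called higher in the Illumina table, 2 of 22 other endothelial markers were, with Emcn, a sialomucin of capillaries and veins, at 0.35 (SE 0.08), and 1 of 14 pericyte genes was higher and 1 lower, so that neither list exceeded the share of all genes. For Ion Proton, 0 of 24 other endothelial markers and 0 of 15 pericyte genes were called by limma (7.73% of all genes higher). At an unadjusted p under 0.05, 6 of these markers reached the mark, where 27.5% of all genes did. For WT, 5 of 22 markers were higher and 1 lower, and 4 of 12 pericyte genes were higher and 1 lower, against 16.5% of all genes higher. Aplnr, the apelin receptor, was lower in CA1 than in CA3 (log2 -1.02) and higher in CA3 than in DG (log2 0.83).

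For the endothelial genes, differences that involve CA3 varied between the number series, for a share of members close to that of all genes (interaction below). Within the 18 rats below 9000, 9 of 10 members were called higher in CA1 than in CA3 (median log2 0.42, with 55.4% of all genes called in either direction) and 1 of 10 higher in CA3 than in DG (median 0.06, with 62.0% called). Within the 16 rats from 9000 upwards, 0 of 10 were called between CA1 and CA3 (median -0.04, lowest limma adjusted p = 0.877, with 13.7% of all genes called) and 7 of 10 were called higher in CA3 than in DG (median 0.49, with 39.7% called). For CA1 against DG, members were called higher in both series, with 10 of 10 members below 9000 (median 0.48, 52.5% of all genes) and 6 of 10 members above (median 0.45, 36.3%).

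The difference between the series was tested as an interaction in 1 fit. For CA1 against CA3, it was called for 4 of 10 members, Pecam1 (-0.58, SE 0.17, limma adjusted p = 0.0031), Cldn5 (-0.55, adjusted p = 0.0044), Abcb1a (-0.52, adjusted p = 0.012) and Tek (-0.45, adjusted p = 0.037), where 39.7% of all genes were called. For CA3 against DG, the same 4 genes were called, with 0.51, 0.50, 0.56 and 0.43 in that order, where 48.4% of all genes were called. For CA1 against DG, 0 of 10 were called by limma (0.839% of all genes), and 0 of 10 had an unadjusted p under 0.05. The share of members called was close to that of all genes in the comparisons that involve CA3.

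The levels in CA3 show this split. Abcb1a ranged from 343.1 to 515.9 (median 420.4) in the 18 CA3 libraries below 9000 and from 301.1 to 1896 (median 839.9) in the other 16. Pecam1 ranged from 85.24 to 154.1 (median 126.6) and from 81.8 to 375.4 (median 194.1) in the same libraries, and Cldn5 from 291.9 to 436.1 (median 360.0) and from 205.9 to 1264 (median 562.5). The lower series was narrow for all 3 genes, and the upper series spread to both sides of it.

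Subfield markers moved with this split. The 7 CA3 marker genes summed to 17211 to 24122 in CA3 libraries below 9000 and to 4679 to 19888 in those from 9000 upwards. The CA1 marker sum in CA3 libraries was 1306 to 7801 (median 3627) and 2991 to 13076 (median 7200). Summed blood genes had medians of 1052 and 3367, and summed astrocyte genes 63222 and 81663. Without the 11 libraries nearest to another subfield, the interaction was again called for 4 of 10 members for CA1 against CA3 (38.6% of all genes) and for 4 of 10 for CA3 against DG (44.6%), and for 0 for CA1 against DG (1.29%). Within the rats from 9000 upwards, the remaining libraries gave 0 members called between CA1 and CA3 (18.9% of all genes), 4 between CA1 and DG (43.2%) and 5 between CA3 and DG (44.7%), so that the last counts were near the share of all genes. The part of the subfield marker, blood and astrocyte levels in this split was not tested.

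**Figure D3:**
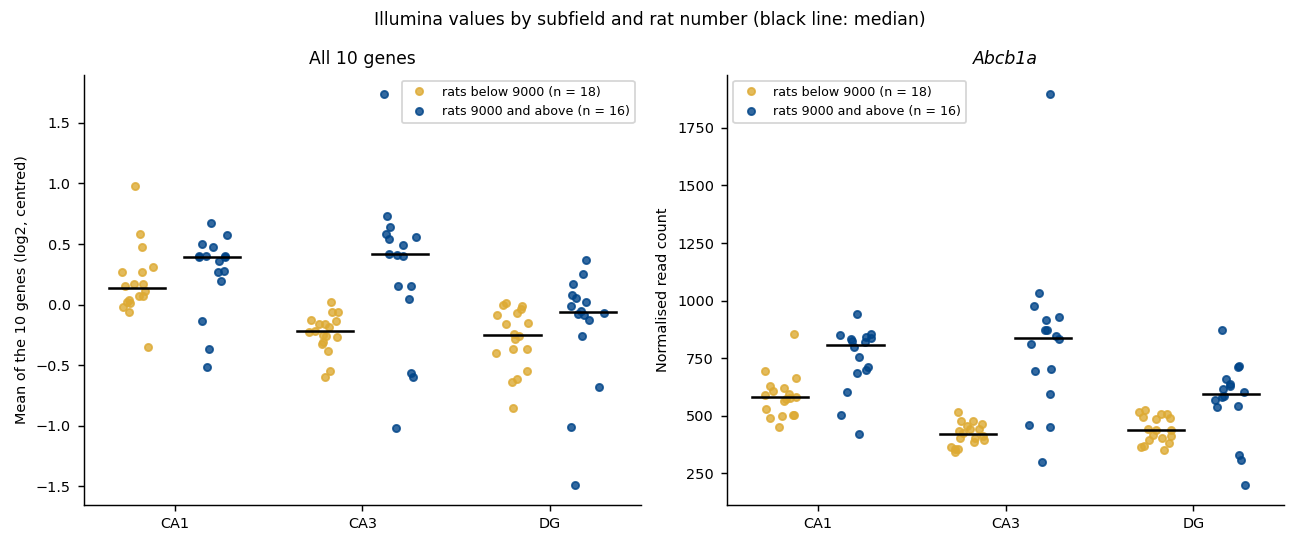
Mean of the 10 endothelial genes (log2, each gene centred over the Illumina libraries) and normalised read count of Abcb1a, by subfield, for the 18 rats numbered below 9000 and the 16 numbered from 9000 upwards, with medians as black lines. In CA3 the median of the gene mean is -0.22 below 9000 and 0.41 from 9000 upwards, while in DG it is -0.25 and -0.06.

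The endothelial genes were low in the rats with the deepest Illumina libraries. In 7 rats (3 Y, 2 OG and 2 OB) all 3 Illumina libraries held 28.0 to 42.8 M reads, against 3.25 to 23.7 M in the other 27 rats. In these 7 rats, members were called lower in 9 of 10 cases in CA1 (3.78% of all genes were called lower), 9 of 10 in CA3 (2.34%) and 10 of 10 in DG (5.66%), and the median log2 difference was -0.53, -0.73 and -0.68. For Ion Proton, 6, 8 and 9 members were called lower (14.6%, 16.4% and 2.91% of all genes), and for WT 6, 6 and 9 (3.13%, 4.62% and 2.42%). In the same rats the Ion Proton libraries held 7.17 to 18.7 M and the WT libraries 3.54 to 9.81 M reads, against 4.47 to 21.4 M and 3.99 to 20.6 M in the other rats.

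Tie1 separated these rats in DG. Its count was 89.59 to 146.6 (median 116.9) in the 7 rats and 179.9 to 316.5 (median 243.2) in the 27, without overlap, a log2 difference of -1.06 (SE 0.09, limma adjusted p = 2.8e-10). Flt1 in DG was 119.3 to 435.5 against 358.7 to 844.1 (log2 -1.02), and Vwf in DG was 146.2 to 367.7 against 285.5 to 773.7 (log2 -0.99), with overlap in both. Kdr in CA1 was 80.62 to 130.1 against 137.9 to 338.3, again without overlap (log2 -0.79). Abcb1a was the member not called in CA1 and CA3, at -0.31 and -0.49.

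Pericyte genes were lower in the same rats. Their sum was 1613 to 2298 against 2382 to 4448 in CA1 and 1146 to 1623 against 1869 to 3534 in DG, with 1 of 15 genes at 0 in every library of either subfield. Summed microglia and leukocyte genes overlapped, at 7388 to 12813 (median 9569) against 6326 to 12743 (median 8544) in CA1. The 7 rats were 3 of the 10 Y, 2 of the 12 OG and 2 of the 12 OB rats, and came from both number series. Without them, 2 members were called between CA1 and CA3 (28.4% of all genes), 10 between CA1 and DG (50.6%) and 7 between CA3 and DG (51.0%). An OG rat, 1 of the 7, had the lowest Illumina value of 7 members in CA1 and of all 10 in CA3 and in DG. The median depth of these and the other rats was 10.4 against 9.62 M reads for Ion Proton and 6.34 against 8.54 M for WT. The median log2 differences of the members in CA1, CA3 and DG were -0.58, -0.91 and -0.84 for Ion Proton and -0.37, -0.52 and -0.61 for WT. The part of depth in the low values was not tested.

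**Figure D4:**
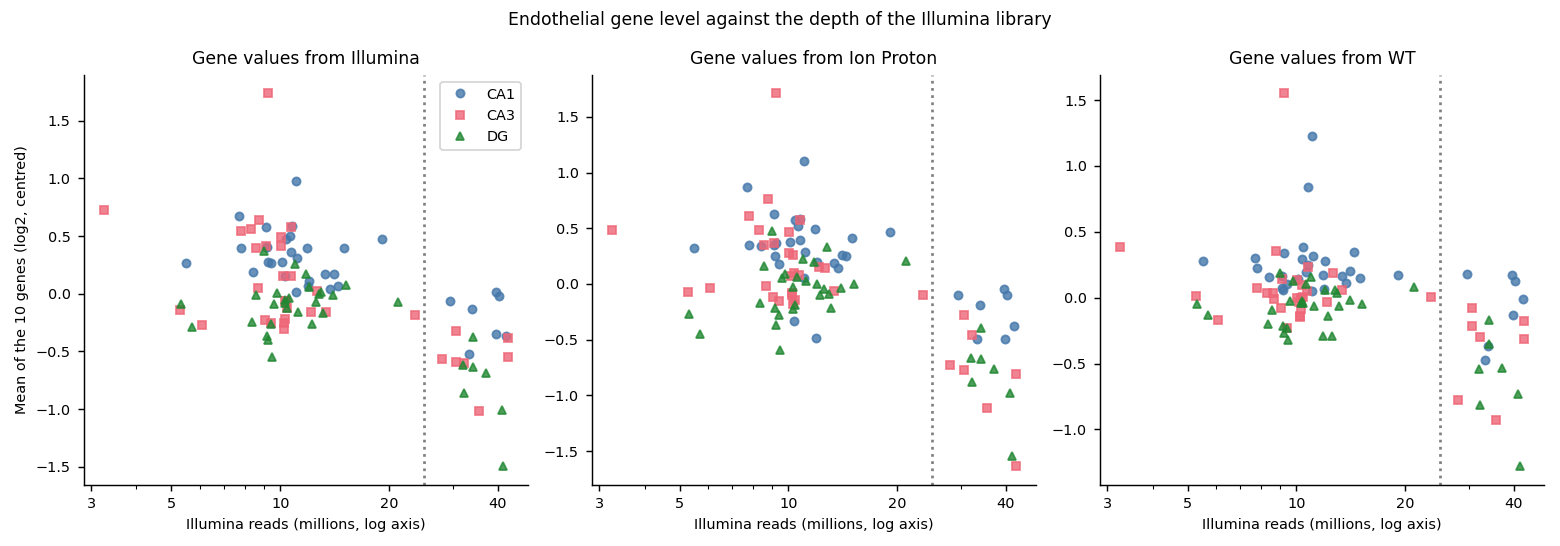
Mean of the 10 endothelial genes (log2, each gene centred over the libraries of its table) in the Illumina, Ion Proton and WT tables, against the reads of the same rat's and subfield's Illumina library (log axis), with a dotted line at 25 M reads. The 21 libraries right of the line come from 7 rats, and in the Illumina table their medians are -0.13 in CA1, -0.57 in CA3 and -0.68 in DG, against 0.31, 0.02 and -0.07 in the other 27 rats.

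A single CA3 library lay at the other end. The CA3 library of 1 young rat was the highest of 34 for 9 of the 10 members in each of the 3 tables. Its Vwf count was 4126, and the next young CA3 library had 648.6. Its summed leptomeninges genes came to 30146, against 388 to 2784 in the other 33 CA3 libraries, its arterial smooth muscle genes to 8029 against 921 to 1709, and its pericyte genes to 8040 against 1398 to 4399. Its CA3 markers (18565) were within the range of the others. Without this rat, 6 of 10 members were called higher in CA1 than in CA3 (36.6% of all genes called in either direction) and 4 of 10 higher in CA3 than in DG (54.8%). Among CA1 libraries, that of 1 OB rat was highest for 6 members and had the highest leptomeninges sum (11116).

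No endothelial gene passed the test for age. For aged against young rats, 0 of 10 members were called by limma in any subfield of the Illumina table, where 0.338% of all genes were called in CA1, 0.0% in CA3 and 0.3% in DG. None of the 10 had an unadjusted p under 0.05, against 6.15% of all genes in CA1, 3.31% in CA3 and 5.2% in DG. edgeR and DESeq2 on the recovered reads also called 0 members in each subfield. The Ion Proton data gave 0 members (0.0197%, 0.00652% and 0.0797% of all genes in the same order), and so did the WT table (0.154%, 0.0% and 0.118%). At an unadjusted p under 0.05 by limma, Cldn5 and Vwf were higher in aged DG in the Ion Proton table (log2 0.48 and 0.54, where 8.47% of all genes reached this mark) and Tie1 was lower in aged CA3 in the WT table (log2 -0.31, where 3.87% did). In the Illumina table the median log2 difference over the members was 0.05 in CA1, while it was -0.11 in CA3 and 0.07 in DG, and single genes ran from -0.16 to 0.33. These medians rested on single young rats. Without the young rat whose CA3 library stood highest, the CA3 median was 0.08 for Illumina, 0.07 for Ion Proton and 0.0052 for WT, and Tie1 in the WT table was at -0.16 (limma unadjusted p = 0.23). Without another young rat, the Illumina medians of CA1 and DG were -0.0048 and -0.02. The rats with the deepest libraries, in which the members were low, were 3 of the 10 Y, 2 of the 12 OG and 2 of the 12 OB rats.

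The intervals show what size of age difference the data could miss. Across the 10 genes, the CA1 intervals (95%, log2 scale) reached down to -0.29 and up to 0.58. Those of CA3 reached -0.61 and 0.70, and those of DG -0.33 and 0.73. They were narrowest for Slc2a1, at -0.15 to 0.19 in CA1 and -0.21 to 0.22 in DG. Slc2a1 in CA1 had a lowest, median and highest count of 1483, 1578 and 2199 in Y, of 1375, 1699 and 2329 in OG, and of 1420, 1831 and 2306 in OB, and the 3 groups overlapped. Cldn5 in DG had 248.2, 412.8 and 438.9 in Y, 167.3, 389.5 and 473.4 in OG, and 292.5, 402.8 and 520.3 in OB, again with overlap.

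No gene of the other endothelial, pericyte, smooth muscle or basement membrane lists was called by limma between aged and young rats in the Illumina table, and at an unadjusted p under 0.05 the count was 1 in each subfield, among the other endothelial markers. In the same table, calls were made among microglia and leukocyte genes, with 2 of 12 higher in CA1 and 5 of 12 in DG (0.338% and 0.3% of all genes called), where the Fc receptor gene Fcgr2b was 0.71 higher and the complement genes C1qa and C1qb were 0.33 and 0.28 higher on the log2 scale, and so was the astrocyte gene Gfap in DG (0.41). The Ion Proton table gave 0 of 12 microglia and leukocyte genes by limma in CA1 and in DG (5 and 7 at an unadjusted p under 0.05), and the WT table gave 3 of 11 and 1 of 11.

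Over the 3 tables, Vwf in DG had the smallest unadjusted p of the members among the class comparisons. Its lowest, median and highest Illumina counts were 197.2, 374.1 and 538.9 in Y, 146.2, 482.9 and 773.7 in OG, and 261.3, 463.6 and 756.2 in OB. OB exceeded Y by 0.37 on the log2 scale (95% interval -0.02 to 0.75), and 8 of 12 OB rats lay above the Y median. In the Ion Proton table the difference was 0.66 and for WT it was 0.28, with unadjusted limma p = 0.061, 0.0083 and 0.024 in the 3 tables and Benjamini-Hochberg adjusted p = 0.986, 0.694 and 0.9995. It did not pass the correction in any table, and the groups overlapped. The rats with the deepest libraries, in which Vwf in DG was low, included 3 of the 10 Y and 2 of the 12 OB rats.

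No endothelial gene passed the test for maze class either. Impaired against unimpaired aged rats gave 0 of 10 members called by limma in each subfield and table, where 0.0% of all genes were called in every case, and edgeR and DESeq2 on the Illumina reads also gave 0. At an unadjusted p under 0.05, the Illumina data held 0 members, against 5.71% of all genes in CA1, 1.4% in CA3 and 3.85% in DG. The Ion Proton table held 2 in CA1, Kdr and Esam (1.95% of all genes), and the WT data 2 in DG, Cldn5 and Vwf (7.09%). The lowest Ion Proton CA1 values of Kdr and Esam came from 2 OG libraries, with reads for 15057 and 15650 genes. An OB library of CA1 had reads for 15815 genes. The mean of the 10 genes in these 2 OG libraries was -0.49 and -0.33, against 0.07 and 0.16 for Illumina (log2, centred). The part of these libraries in the result was not tested. In CA1 all 10 Illumina estimates were positive (median 0.16, against -0.0036 for all genes). Cldn5 came closest, at 573 ± 108 in OB and 499 ± 92.2 in OG (SD, n = 12 each), a log2 difference of 0.20 with a 95% interval of -0.01 to 0.41. The CA1 median was 0.07 without the OB rat whose CA1 library was highest for 6 members and 0.09 without the OG rat with the lowest values. In DG all 10 Illumina estimates were also positive (median 0.10), but 5 of 10 without that OG rat (0.0046). In CA3, 6 of 10 were positive (median 0.02), and 0 of 10 without it (-0.07). The members varied together, so the 10 signs are not independent. Against Y, OG and OB also gave 0 of 10 members called by limma in every subfield of the Illumina table, with 0 at an unadjusted p under 0.05 (all genes called: 0.0%, 0.0% and 0.05% for OG and 0.0212%, 0.0% and 0.0998% for OB in CA1, CA3 and DG). These comparisons share the Y or the OG rats. The differences between subfields in the age effect and in the OB to OG effect were called for 0 members by limma in the Illumina data (0.0% of all genes in each case), with 0 at an unadjusted p under 0.05 and adjusted p of at least 0.928.

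**Figure D5:**
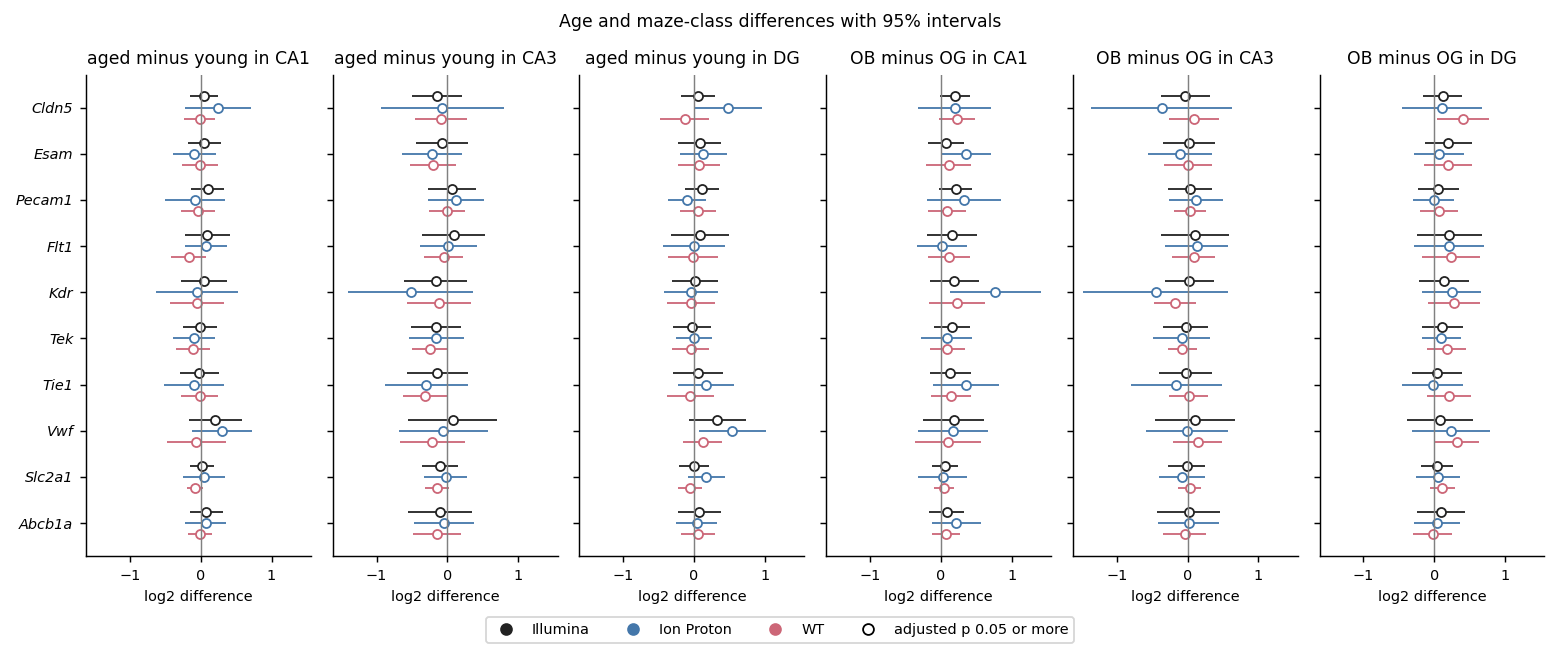
Log2 differences of the 10 endothelial genes between aged (n = 24) and young (n = 10) rats and between impaired (OB, n = 12) and unimpaired (OG, n = 12) aged rats in each subfield, with 95% intervals, in the Illumina, Ion Proton and WT tables. Every point is open (adjusted p of 0.05 or more), and most intervals include 0.

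The members varied as a unit. With log2 values centred within each of the 9 groups of subfield and class, the correlation of each gene with the mean of the other 9 ran from 0.78 (Kdr) to 0.95 (Esam) over the Illumina libraries of all 34 rats, from 0.58 to 0.88 in the Ion Proton table and from 0.65 to 0.88 in the WT table. All 45 pairs correlated above 0 in each table, with medians of 0.84, 0.59 and 0.65. These libraries share rats and depth, so the values are a description. The genes most like the mean of the members in the Illumina table were Gpr116 (0.956), an adhesion receptor, Egflam (0.952), a matrix protein, Slco1a4 (0.950), a transporter of organic anions at the barrier, Hspa12b (0.943), a heat shock protein of endothelium, and Cdh5 (0.941), followed by Podxl, AABR06033538.1, Eng, Cald1 and Acvrl1 (0.935). All 10 were also called higher in CA1 than in DG, as were 29.0% of all genes.

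Among the lists, the mean of the other endothelial markers correlated at 0.97 with the mean of the members over the same libraries, pericytes at 0.95, transcription factors at 0.92, transporters at 0.90, basement membrane at 0.87 and leptomeninges at 0.75. Blood genes were at 0.43, microglia and leukocytes at 0.03 and the CA3 markers at -0.48. Between tables, the same gene in the same rat and subfield correlated at 0.58 (Kdr) to 0.94 (Flt1) for Illumina and Ion Proton and at 0.70 to 0.91 for Illumina and WT.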

How the data were processed

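RNA of CA1, CA3 and DG from each of 34 rats was measured in 3 deposited tables: Illumina poly-A, Ion Proton poly-A and WT, whose library type is not given in the sources used here. The deposited values are a normalised signal, which the authors made by dividing gene counts by 1 size factor per library. The submitters' processing notes name bcl2fastq 2.17, cutadapt 1.8.3, STAR 2.5, featureCounts 1.4.4, DESeq2 1.16.1 and the rn5 genome, and for Ion Proton reads TopHat2 and Bowtie2. The labels name a stranded kit and the methods an unstranded one, so reads of a gene and an antisense partner cannot be told apart here.

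Whole reads were recovered for 100% of values (tolerance 0.01), which gave the depth. The 48 entries without a symbol held 0.0203% of Illumina, 0.0576% of Ion Proton and 0.039% of WT reads and stayed out of tests. Values were tested as log2(value + 1), for genes with a mean of at least 10 over the libraries compared, with the trend test of limma 3.58.1 (R 4.3.3) and Benjamini-Hochberg adjustment at 0.05, checked on simulated data. A fold change on this scale understates that of low genes. Subfield fits used all libraries, and age and class fits those of 1 subfield. edgeR 4.0.16 and DESeq2 1.42.0 were run on the recovered Illumina reads as alternatives, and called 8117 and 8089 of 14179 genes between CA1 and DG, against 7888 by limma. Both called all 10 members there.

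Same-numbered libraries come from the same rat. As a check, the correlation of their deviations from the group means had a median of 0.0866 for CA1 and CA3, 0.189 for CA1 and DG, and -0.0324 for CA3 and DG, against 0.00108, -0.0131 and -0.0059 for different rats. Each rat gave 1 library per subfield, so p-values of fits within 1 subfield measure the spread between animals. Fits over several subfields took the libraries as unpaired, so their p-values measure the spread between libraries, with rat differences left in. Only the fits with the rat as a block removed these differences. They called more members between CA1 and CA3 and between CA3 and DG.

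The 10 members are all named. From each other list, up to 3 called genes per comparison are named, those with the largest Illumina change that also had an unadjusted p under 0.05 and an equal sign for Ion Proton, as are the 10 genes that correlated best with the mean of the members. The members and lists were chosen with earlier results of these data known. Other alternatives were the pseudocount (0.1), no filter on low values, quantile normalisation, the rat as a block, the number series, subfield markers, depth and each rat left out in turn. Promoters were taken from RefSeq (GRCr8), a build other than that of the tables, and were matched by symbol.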

Additional observations from a re-analysis of the deposited data

Results flagged for a closer look

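In 11 of 30 groups of 10 young rats (10 genes in 3 subfields), the highest library lay apart from the rest by Dixon's criterion, which chance meets in about 1 of 20 groups. The members vary together, and only 2 libraries lie behind the 11 cases. The CA3 library of 1 young rat was apart for Cldn5 (1264 normalised counts), Kdr (798.2), Tek (894.5), Tie1 (983.8), Pecam1 (375.4), Vwf (4126), Slc2a1 (3355) and Abcb1a (1896). This is the library with the summed leptomeninges count of 30146. The CA1 library of another young rat was apart for Kdr (270.6), Pecam1 (293.6) and Vwf (985.7), with a leptomeninges sum of 6154 and the highest smooth muscle sum of the CA1 libraries (4720).

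Differences between the number series were called by limma for 4 genes. For CA1 against CA3, rats from 9000 upwards minus rats below 9000 gave -0.523 for Abcb1a, -0.452 for Tek, -0.581 for Pecam1 and -0.549 for Cldn5 on the log2 scale. For CA3 against DG they gave 0.563, 0.433, 0.506 and 0.498 for the same genes. Both comparisons use the CA3 libraries, and the shares of all genes called were 39.7% and 48.4%.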

How the results depend on the processing

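Shares in brackets are those of all genes called in the same fit, in either direction. All 10 members were called higher in CA1 than in DG under every alternative run except within the 16 rats from 9000 upwards, where 6 were called (36.3%), or 4 (43.2%) without the libraries nearest to another subfield (chosen after seeing the data), and with each rat left out in turn (10 to 10). For CA1 against CA3, where 2 were called, edgeR and DESeq2 called 1 each (36.4% and 38.1%), Pecam1 remaining and Cldn5 lost, the number series as a covariate gave 4 (37.9%), rats below 9000 gave 9 (55.4%), rats from 9000 upwards gave 0 with or without such libraries (13.7% and 18.9%), and leaving out the 11 libraries nearest to another subfield gave 6 (45.4%). Membership of the 7 deepest rats as a covariate, chosen after seeing the data, also gave 6 (37.4%), and leaving out each rat gave 2 to 6, with 6 only without the young rat whose CA3 library stood highest (36.6%). For CA3 against DG, where 6 were called, rats below 9000 gave 1 (62.0%), edgeR and DESeq2 gave 9 each (57.3% and 58.0%), and leaving out each rat gave 4 to 7, with 4 without that same rat (54.8%). In rats from 9000 upwards, only 3 of 10 estimates between CA1 and CA3 stayed positive, and the other 7, from -0.08602 (Vwf) to -0.02008 (Kdr), changed sign, among them the called genes Cldn5 (-0.03426) and Pecam1 (-0.03638). In rats below 9000, 7 of 10 estimates between CA3 and DG stayed positive, and among the called genes Cldn5 (-0.01696) changed sign. The cause was not tested.

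With the rat as a block, 9 members were called between CA1 and CA3 (40.7%), 10 between CA1 and DG (59.3%) and 10 between CA3 and DG (59.9%). The 18 comparisons of age, class and their interactions kept 0 members called in every alternative, with a lowest adjusted p of 0.575 (limma). The smallest read number behind a member was 38 in the Illumina table, so counting error adds to the spread of Kdr and Pecam1 in shallow libraries. It was 1 in the Ion Proton table and 13 in the WT table, both for Kdr. Leaving out each rat for age in CA3 in the Ion Proton and WT tables was chosen after seeing the data.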
